A study of Mus musculus with 69 samples.

Results

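Hes1 signal differed among apical progenitors of the embryonic mouse cortex, from well above an array signal of 50 in some cells to at or below it in others. The 28 cells described here were chosen by their own measured signals: out of 66 single cells taken from the ventricular and subventricular zones (VZ/SVZ), they had Sox2 above a signal of 50 and Eomes at or below it. In 17 of the 28 Hes1 was above 50, and these are called Hes1-positive; in 11 it was at or below 50, and these are called Hes1-negative. The whole series held 69 cells, and the other 3 came from the cortical plate.

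All cells came from the dorsal forebrain of CD1 mice at embryonic day 14, with no treatment or allele named. Each was picked at random by hand after trypsin digestion, lysed, amplified to cDNA and put on its own Affymetrix whole-genome array, and the signal of a probe set is an intensity on a linear scale. Per the study's design text, 102 cells were amplified and 70 were put on arrays after a quality check. No label names the embryo, litter or culture of a cell, so either side counts as 1 sample and no test was run: errors are SDs over cells, intervals of shares are exact Clopper-Pearson 95% intervals that cover counting error only, and a difference of at least 1 log2 unit between the mean log2 signals is a rule of size.

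Apical progenitors line the ventricle, divide there and carry the transcription factor Sox2, while Eomes (Tbr2) marks the intermediate progenitors that they give rise to. Hes1 is a transcriptional repressor switched on when a Notch receptor, cleaved after it meets a ligand on a neighbouring cell, joins the DNA-binding protein Rbpj. Hes1 is known to repress proneural genes such as Neurog2 and its own promoter, and in mouse neural progenitors its mRNA is known to oscillate.

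The titles of the cells carry a letter whose meaning the labels do not give. The 17 Hes1-positive cells were 7 cells of letter A and 10 of letter X, and the 11 Hes1-negative cells were 10 of letter X and 1 of letter B. Letter A therefore lay wholly on the Hes1-positive side, and only letter X, with 10 cells against 10, gave a comparison in which the letter was the same on both sides. Values within letter X are given below for genes whose pooled call was lost or whose sign turned there. The titles also carry a number of unstated meaning, and 4 numbers (11, 15, 17 and 23) occurred on both sides, in 10 Hes1-positive and 7 Hes1-negative cells.

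Hes1 (chr16:30065357-30067796, GRCm38.p6) had a lowest, median and highest signal of 91.7, 270 and 862 in the Hes1-positive cells, against 0.787, 9.97 and 36.2 in the Hes1-negative cells. No cell lay between 36.2 and 91.7, so the cut fell into a gap. The cells nearest to the other cuts had a Sox2 signal of 96.3 and 47.8 and an Eomes signal of 245 and 40.8, on the upper and the lower side of 50. Within the Hes1-positive cells, those of letter A had a median Hes1 signal of 729 and those of letter X one of 121. Sox2 itself was above 50 in every cell by the rule, with a median of 1214 in the Hes1-positive and 1973 in the Hes1-negative cells.

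Hes1 was seldom above 50 outside these 28 cells. Among the 21 VZ/SVZ cells with both Sox2 and Eomes above 50 it was above 50 in 2, both of letter X. That share was 9.52% (interval 1.17% to 30.4%), against 60.7% (interval 40.6% to 78.5%) of the 28. Within letter X, Hes1 was above 50 in 2 of 6 such cells (33.3%, interval 4.33% to 77.7%). Among the 28, it was above 50 in 10 of the 20 letter X cells (50%, interval 27.2% to 72.8%). The rest of the 21 were 11 cells of letter B and 4 of letter C, none with Hes1 above 50. Class and letter cannot be told apart for the pooled shares. Hes1 was above 50 in 0 of the 7 cells with Eomes but no Sox2, 0 of the 10 with neither, and 0 of the 3 cortical plate cells.

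**Figure D1:**
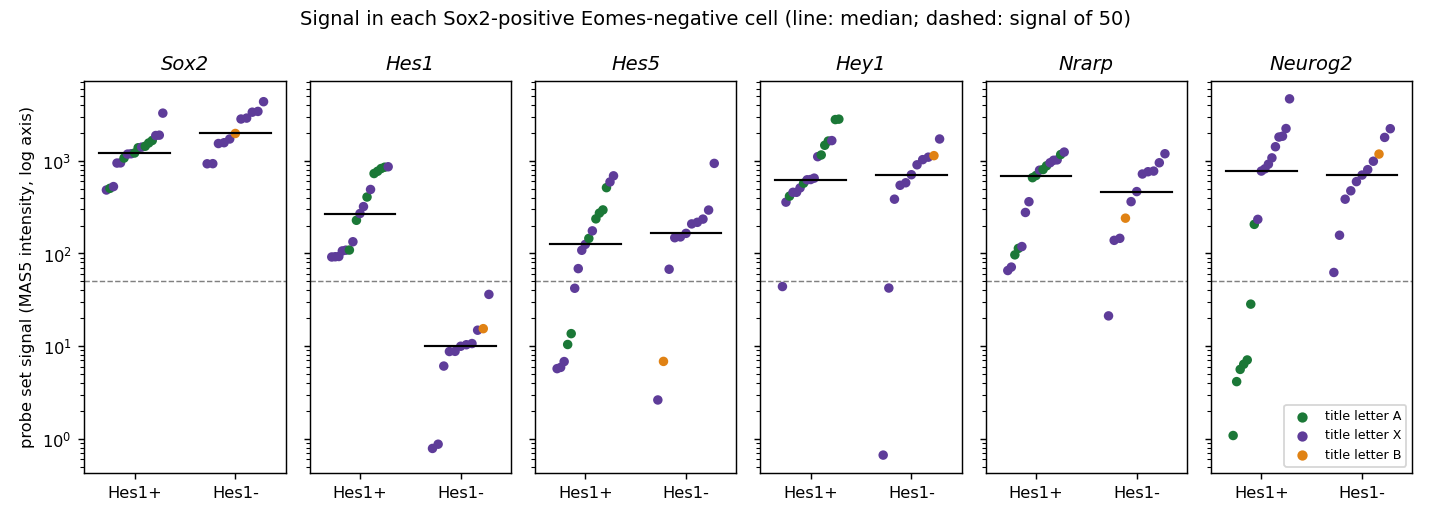
Signal of Sox2, Hes1, Hes5, Hey1, Nrarp and Neurog2 in each cell on a log axis, with Hes1-positive cells on the left and Hes1-negative cells on the right of each panel. Points are cells coloured by title letter, lines are medians and the dashed line is a signal of 50. Hes1 splits by the rule, the other Notch targets overlap, and 6 of the 7 letter A cells are below 50 in Neurog2.

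Genes of radial glia, the apical progenitors of this stage, were detected on both sides. Pax6, Vim, Fabp7 and Sox9, a transcription factor, an intermediate filament, a lipid-binding protein and a second transcription factor of radial glia, were above 50 in all 17 Hes1-positive and all 11 Hes1-negative cells. Of 29 apical progenitor genes other than the genes of the rule, 89.0% ± 5.75 were above 50 in the Hes1-positive cells and 90.0% ± 5.86 in the Hes1-negative cells (SD over cells), and none of the 29 differed by 1 log2 unit, where 3.82% of all measured genes were higher and 4.42% lower by that much with Hes1. Of 29 neuron markers, 29.4% ± 5.60 were above 50 in the Hes1-positive cells and 28.5% ± 5.99 in the Hes1-negative cells. Some, such as Tubb2a and Dpysl3, were detected in most cells and are given below, while others were seldom detected: Dcx, a microtubule protein of migrating neurons, was above 50 in 3 of 17 Hes1-positive and 2 of 11 Hes1-negative cells, and Tbr1, a transcription factor of deep-layer neurons, in 1 of 17 and 0 of 11.

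Markers of other cell types were at or near 0 on both sides. No gene of the interneuron, microglia or erythroid lists was above 50 in any of the 28 cells. The percentage of the list above 50 in a cell ranged from 0 to 9.09 for Cajal-Retzius genes, 0 to 10 for endothelial genes, 0 to 8.33 for pericyte and meningeal genes and 0 to 11.1 for oligodendrocyte precursor genes in both the Hes1-positive and the Hes1-negative cells.

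Signs of RNA quantity did not separate the sides either. A Hes1-positive cell had between 4419 and 5488 genes above 50 (median 4944), against between 4459 and 5715 (median 4983) in a Hes1-negative cell. The bacterial phe spike, added at 20 copies per cell, had a mean log2 signal of 9.69 ± 1.10 in Hes1-positive and 9.99 ± 0.96 in Hes1-negative cells. Within letter X these values lay further apart, at 9.51 ± 1.07 and 10.23 ± 0.59. Sex-linked transcripts did differ: Xist, the non-coding RNA that coats the inactive X chromosome, was above 50 in 10 of 17 Hes1-positive and 9 of 11 Hes1-negative cells, and the Y-linked Eif2s3y in 7 of 17 and 1 of 11. Within letter X, Xist was above 50 in 4 of 10 Hes1-positive and 8 of 10 Hes1-negative cells, and Eif2s3y in 6 of 10 and 1 of 10. The cells thus came from embryos of both sexes, unevenly over the sides, and the part of embryo or sex in the differences below was not tested.

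Most other Notch targets did not follow Hes1. Hes5, a repressor of the same family that is also a Notch target, was above 50 in 11 of 17 Hes1-positive cells (64.7%, interval 38.3% to 85.8%) and 9 of 11 Hes1-negative cells (81.8%, interval 48.2% to 97.7%). Its lowest, median and highest signals were 5.72, 125 and 688 in Hes1-positive cells, against 2.62, 165 and 938 in Hes1-negative cells, so the ranges overlapped almost whole. The difference in mean log2 signal was −0.26, or −0.65 within letter X. It moved with the cells compared. In the letters other than X, with 7 Hes1-positive cells against 1, it was 1.74, the other way. In the Xist-positive cells of letter X, 4 against 8, it was −1.61. The cells fell into every combination: 11 had both Hes1 and Hes5 above 50, 6 had Hes1 only, 9 had Hes5 only and 2 had neither. Within letter X the same counts were 6, 4, 9 and 1.

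Hey1, a related repressor, was above 50 in 16 of 17 Hes1-positive and 9 of 11 Hes1-negative cells. Its lowest, median and highest signals were 43.98, 628 and 2815 in Hes1-positive cells, against 0.667, 708 and 1719 in Hes1-negative cells, and the difference in mean log2 signal was 0.56, or 0.12 within letter X. Nrarp, a target that dampens Notch signalling, was above 50 in 17 of 17 and 10 of 11 cells, with signals of 65.5 to 1242 (median 694) in Hes1-positive and 21.2 to 1192 (median 465) in Hes1-negative cells. Its mean log2 signals, 8.67 ± 1.55 and 8.55 ± 1.43, differed by 0.12, or by −0.06 within letter X. Hes5, Hey1 and Nrarp were thus each above 50 in most Hes1-negative cells and in most Hes1-positive cells. Nrarp was also above 50 in 9 of the 9 cells with Hes5 only, which were chosen for their Hes5 signal.

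The upstream sequences of Hes5 and Nrarp are shown because both targets were measured on either side of the Hes1 cut. They are the 250 bases before the transcript start used in a RefSeq promoter table (GRCm38.p6), on the plus strand, at chr4:154960673-154960922 for Hes5 and chr2:25180508-25180757 for Nrarp. RefSeq's gene span for Hes5 begins earlier, at 154960626, so that the Hes5 window lies inside the annotated span, whereas the Nrarp span begins at 25180758, just after its window. Capitals mark matches, on either strand, to the Rbpj core TGGGAA, the N box CACNAG or the class C site CACGNG, the last 2 being sequences bound by Hes repressors. No match overlapped another.
Hes5: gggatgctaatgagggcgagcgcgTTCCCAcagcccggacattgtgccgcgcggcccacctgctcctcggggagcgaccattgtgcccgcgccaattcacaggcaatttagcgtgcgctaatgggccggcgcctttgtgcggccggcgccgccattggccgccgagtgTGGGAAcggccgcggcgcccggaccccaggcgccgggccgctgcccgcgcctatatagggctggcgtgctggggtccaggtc
Nrarp: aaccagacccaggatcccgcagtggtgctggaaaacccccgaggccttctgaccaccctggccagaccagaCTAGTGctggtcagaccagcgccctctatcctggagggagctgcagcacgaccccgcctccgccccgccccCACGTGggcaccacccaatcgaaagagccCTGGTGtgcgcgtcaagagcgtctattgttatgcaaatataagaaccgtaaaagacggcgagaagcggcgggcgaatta

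The Hes5 window held 2 Rbpj core matches, in opposite orientations, and the Nrarp window held 2 N boxes and 1 class C site. Over all 32851 windows in the table, 21.6% held the Rbpj core, 36.7% the N box and 23.5% the class C site. The windows of the 288 genes described below as higher with Hes1 (238 of them in the table) held these in 23.2%, 33.2% and 39.1%, and those of the 333 lower genes (283 in the table) in 19.4%, 29.6% and 33.2%. The windows of all measured genes stood at 19.7%, 34.1% and 36.4%, so the shares of both sets lay within 5 percentage points of them.

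Neurog2, the proneural factor that drives neurogenesis in the dorsal cortex, showed opposite differences with and without letter A. Over all cells it was above 50 in 11 of 17 Hes1-positive and 11 of 11 Hes1-negative cells, and its mean log2 signal was lower with Hes1 by 0.72 (difference of −0.72). Within letter X it was above 50 in 10 of 10 Hes1-positive and 10 of 10 Hes1-negative cells. There its signals ran from 233 to 4662 (median 1247) in Hes1-positive cells, against 62.4 to 2220 (median 649) in Hes1-negative cells, a difference of 1.16 in mean log2 signal. In letter A, where every cell was Hes1-positive, it was above 50 in 1 of 7 cells, with a median of 6.38. Hes1 and letter cannot be told apart for the pooled value, and Hes1 and Neurog2 were above 50 together in 10 cells of letter X.

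Other proneural genes varied between cells on both sides. Insm1, a zinc-finger factor of newly formed basal progenitors, was above 50 in 11 of 17 Hes1-positive and 9 of 11 Hes1-negative cells, and its mean log2 difference was −0.45, or 0.11 within letter X. Btg2, an antiproliferative gene of cells about to make neurons, was above 50 in 13 of 17 and 8 of 11, with a mean log2 difference of 0.56. Hes6, which counteracts Hes1 in mouse, was above 50 in 10 of 17 and 5 of 11. Neurod1, a factor of later stages, was above 50 in none of the 28 cells.

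Among the ligands, Dll1 was above 50 in 5 of 17 Hes1-positive and 3 of 11 Hes1-negative cells and Jag1 in 7 of 17 and 5 of 11. Dll3, a ligand-like inhibitor, and Lfng, a glycosyltransferase that modifies Notch, were above 50 in none. Among the receptors, Notch1 was above 50 in every cell, with signals of 429 to 2807 (median 1445) in Hes1-positive cells, against 1249 to 4025 (median 2278) in Hes1-negative cells. Its mean log2 difference of −0.66 compares with SDs of 0.80 and 0.55 on the 2 sides, and a second probe set differed by 0.44, the other way. Notch2 differed by −0.31.

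In the pathway, Notch3, Numb and Tle3 differed by at least 1 log2 unit. Notch3, a receptor also known from blood vessel mural cells, had signals of 43.5 to 1919 (median 716) in Hes1-positive cells, against 14.9 to 1309 (median 299) in Hes1-negative cells. Its mean log2 signal was 8.94 ± 1.56 in Hes1-positive and 7.90 ± 1.67 in Hes1-negative cells, higher by 1.04, but by 0.27 among the Xist-positive cells alone (10 against 9). A second measured Notch3 probe set differed by 0.54, under the rule of size. Numb, an inhibitor of Notch passed unequally to daughter cells, had signals of 1.03 to 297 (median 32.98) in Hes1-positive cells, against 3.70 to 802 (median 215) in Hes1-negative cells. It was above 50 in 6 of 17 and 7 of 11 cells and differed by −1.34. Tle3, a Groucho-type co-repressor that Hes proteins recruit, had signals of 0.930 to 650 (median 16.1) in Hes1-positive cells, against 0.3502 to 1061 (median 379) in Hes1-negative cells. It was above 50 in 5 of 17 and 8 of 11 cells and differed by −1.79, and by −1.88 within letter X. The ranges of all 3 genes overlapped between the sides, and in the letters other than X, which are 7 Hes1-positive cells against 1, Numb and Tle3 differed by 0.25 and 0.37, the other way.

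As lists, the Notch genes stood near all genes, of which 3.82% were higher and 4.42% lower past the rule of size. Of 12 measured receptors, ligands and modifiers, 1 was higher and 1 lower past the rule of size, and the median difference was −0.0017. Of 11 measured effectors and feedback genes, 0 were higher and 1 was lower, and the median was 0.11. In lists of this size each of these counts is a single gene. The median of all measured genes was −0.02. Rbpj was above 50 in 15 of 17 Hes1-positive and 8 of 11 Hes1-negative cells, a difference of 0.92 in mean log2 signal, and its co-activator Maml1 in 11 of 17 and 4 of 11, a difference of 0.98.

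Across all genes the difference between the sides was small beside the spread between cells. Of 18194 genes, 7532 were above 50 in at least 20% of the 28 cells and entered the comparison, the genes of the rule left out. With Hes1, 288 genes (3.82%) were higher and 333 (4.42%) lower by at least 1 log2 unit, and the median difference over all 7532 was −0.02. No gene (0%) had ranges that did not overlap between the 17 and the 11 cells. Of the 621 genes past the rule of size, 573 differed by less than the larger of their SDs over cells on the 2 sides. The median SD of a measured gene was 1.45 over Hes1-positive and 1.44 over Hes1-negative cells.

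Within letter X, 409 of the same genes (5.43%) were higher and 496 (6.59%) lower with Hes1 by at least 1 log2 unit. Of the 621 genes past the rule over all cells, 443 were past it in the same direction in letter X, whose cells are also part of the pooled comparison. Genes of both directions were mostly detected in some cells of either side and not in others. Among the 745 genes above 50 in each of the 28 cells, 4 were higher and 2 lower by at least 1 log2 unit. Both shares lay below the 3.82% higher and 4.42% lower over all 7532 measured genes.

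Those 6 genes, named after their values were seen, belong to general cell functions. Dynlrb1, a dynein light chain, had mean log2 signals of 10.79 ± 0.53 in Hes1-positive and 9.33 ± 1.67 in Hes1-negative cells. Gabarap, an autophagy protein, had 10.60 ± 0.69 and 9.51 ± 1.83. Eif1ax and Btf3, genes of translation and nascent chain binding, differed by 1.07 and 1.04. Caprin1 and Khdrbs1, RNA-binding proteins, differed by −1.38 and −1.33.

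The same rule was applied to other divisions of such cells, all chosen after the data were seen. The share of genes past it also depends on the group sizes, which differ between these divisions. Among the Hes1-positive cells, 7 of letter A against 10 of letter X gave 7.82% higher and 8.71% lower. Among letter X cells with Sox2, 6 with Eomes above 50 against 20 without gave 7.42% higher and 10.4% lower. Dividing the same 28 cells by Neurog2, 22 above 50 against 6, gave 7.3% higher and 6.04% lower.

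Divisions of the 28 cells by 6 further genes, Hes5, Dll1, Ccnd1, Mcm6, Xist and Btg2, put between 8.15% and 12.6% of genes past the rule in either direction, against 8.24% for Hes1. The division by Mcm6 had the same group sizes as that by Hes1, 17 cells against 11, and gave 3.16% higher and 4.99% lower. At equal group sizes the share for Hes1 was thus close to that for a replication gene. These values describe the cells and are not a test.

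**Figure D2:**
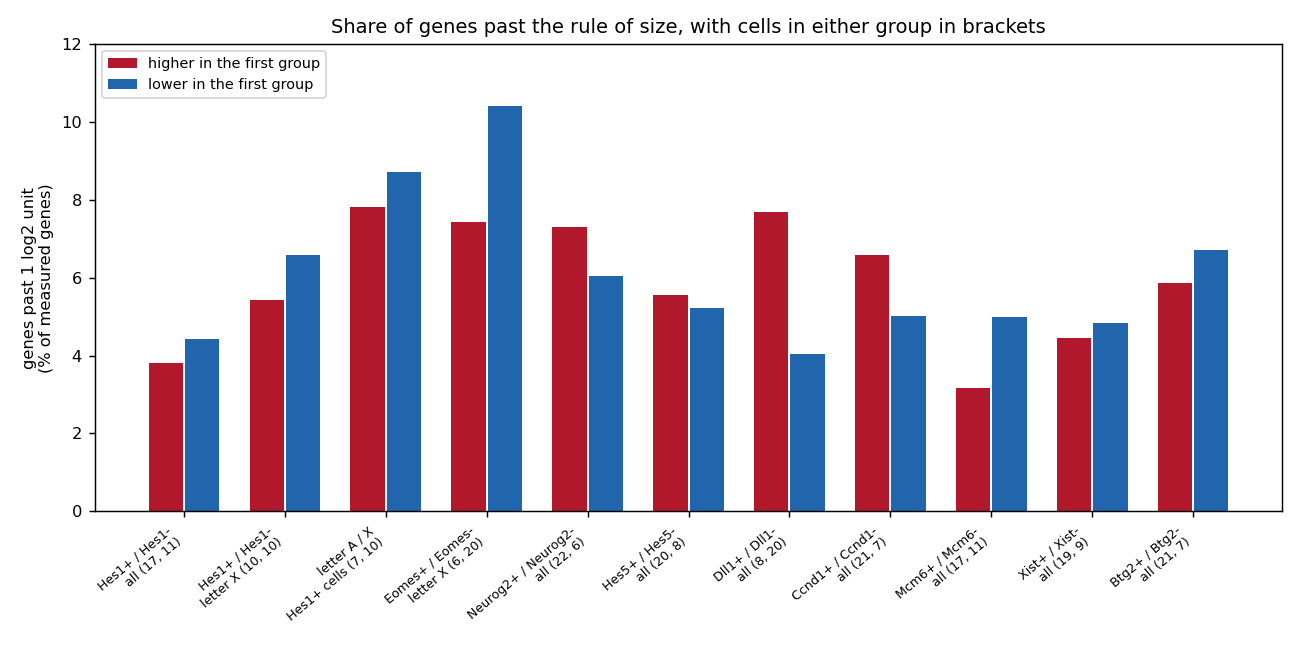
Share of measured genes that were higher (red) or lower (blue) by at least 1 log2 unit in the first-named group of each comparison, with the number of cells in each group in brackets. Hes1 over all cells stands at 3.82% and 4.42%, near the division by Mcm6 with the same group sizes, at 3.16% and 4.99%.

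The direction of genes was then read across letters. The 100 genes highest with Hes1 in letter X were higher in 67% in the other letters, against 59.01% of all measured genes. The 100 lowest were lower in 48%, against 39.6% of all. The comparison in the other letters sets 7 letter A cells against 1 letter B cell.

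The 15 genes with the highest differences, selected for these differences by the rule for named genes, ranged from 1.68 to 2.22. They were Ints11, Eif4enif1, Akt1s1, Mgst1, Dip2a, Nelfcd, Mrpl35, Fh1, Irf3, Eapp, Snhg4, Mtor, Glg1, Mpi and Sh3rf3. Ints11 (chr4:155869547-155889103), the RNA-cutting subunit of the Integrator complex, had signals of 9.77 to 2148 (median 688) in Hes1-positive cells, against 9.85 to 701 (median 23.3) in Hes1-negative cells. It was above 50 in 15 of 17 Hes1-positive and 5 of 11 Hes1-negative cells, and its mean log2 signals of 9.02 ± 1.62 and 6.80 ± 1.43 differed by 2.22. Most cells with high signal were on the Hes1-positive side, but 2 Hes1-positive cells were at or below 50.

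Eif4enif1, which carries the cap-binding protein eIF4E into the nucleus, was above 50 in 15 of 17 Hes1-positive and 5 of 11 Hes1-negative cells, with medians of 717 and 41.4. Mtor, the growth-controlling kinase, was above 50 in 15 of 17 and 6 of 11, with medians of 705.5 and 68.3. Akt1s1, an inhibitory partner of mTOR complex 1, was above 50 in 16 of 17 and 5 of 11, with medians of 689 and 31.9. A second Akt1s1 probe set differed by 0.41 where the first differed by 2.08. Fh1, the fumarase of the citric acid cycle, was above 50 in 16 of 17 and 6 of 11 cells, and Irf3, a transcription factor of antiviral responses, in 13 of 17 and 4 of 11. A second measured Irf3 probe set differed by 0.57 where the first differed by 1.81. Nelfcd, a subunit of the factor that pauses RNA polymerase II, was above 50 in 14 of 17 and 4 of 11.

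The 15 genes with the lowest differences, selected in the same way, ranged from −2.46 to −1.71. They were Carnmt1, Zfp512, Ppp2r2a, Odf2, Mtx1, Cd2bp2, Tug1, Zfp41, Rad51ap1, Uba6, Klf3, Kif2a, Arhgap5, Dcp1a and AW549877. Carnmt1 (chr19:18670759-18707201), a carnosine methyltransferase, had signals of 0.330 to 1706 (median 7.73) in Hes1-positive cells, against 1.47 to 1589 (median 537) in Hes1-negative cells, and was above 50 in 5 of 17 and 9 of 11. Zfp512 (chr5:31452421-31481754), a zinc-finger protein, had signals of 6.32 to 501 (median 40.4) in Hes1-positive cells, against 215 to 1502 (median 446) in Hes1-negative cells. Every Hes1-negative cell had Zfp512 signal, as did 8 of the 17 Hes1-positive cells, whose highest value still lay above the Hes1-negative median.

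Ppp2r2a, a regulatory subunit of protein phosphatase 2A, was above 50 in 9 of 17 Hes1-positive and 11 of 11 Hes1-negative cells, with medians of 145 and 686. Cd2bp2, a splicing protein, was above 50 in 12 of 17 and 11 of 11, with medians of 207 and 716. Rad51ap1, a protein of homologous recombination, was above 50 in 7 of 17 and 10 of 11, and Kif2a, a kinesin that takes microtubules apart, in 8 of 17 and 9 of 11. Tug1, a long non-coding RNA, was above 50 in 9 of 17 and 9 of 11. Odf2, a centriole appendage protein, differed by −2.04 on its best probe set, but 2 further probe sets differed by 0.38 and 0.59, the other way.

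Within letter X, 14 of the 15 higher genes and 15 of the 15 lower genes were past 1 log2 unit in the same direction, Glg1 standing at 0.78. Another measured probe set existed for 3 of the higher genes, of which 2 had the same sign throughout, and for 9 of the lower genes, of which 7 did. The rule required the same sign inside and outside letter X, so these counts describe the selected genes and support nothing further. With all probe sets of a gene averaged, 15 of the 30 stayed past 1 log2 unit, and with the Hes1 cut at 100, 26 did.

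**Figure D3:**
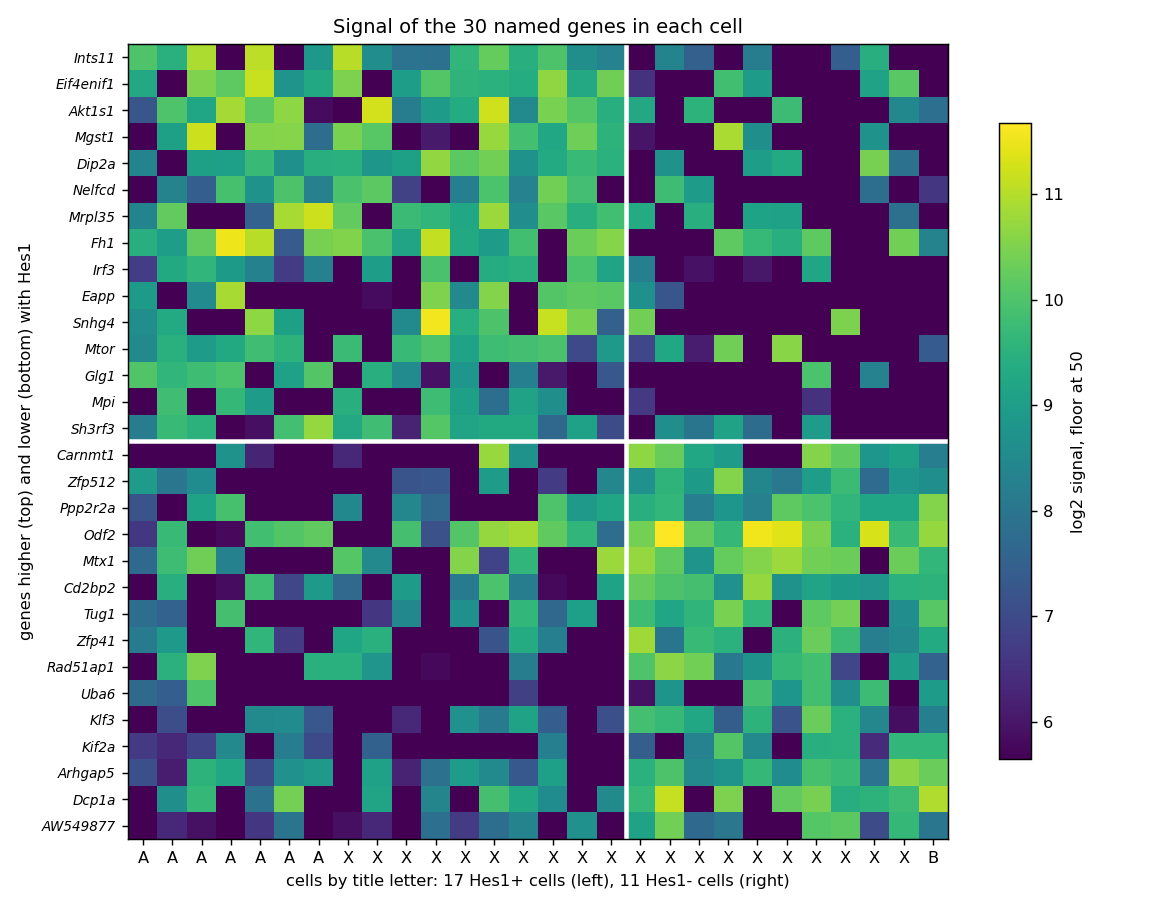
Log2 signal, with values under 50 set to 50, of the 30 named genes in each of the 28 cells, with the 17 Hes1-positive cells left of the white line and the 11 Hes1-negative cells right of it. The genes were selected for their difference; the darkest squares are signals at or below 50, and every gene but Zfp512, Ppp2r2a, Odf2, Cd2bp2, Klf3 and Arhgap5 has such squares on both sides.

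Signalling lists other than Notch contained single genes past the rule of size, and no list median reached it. The background for these counts is the 3.82% of all measured genes that were higher and the 4.42% that were lower. Among 8 measured Hedgehog genes, 1 was higher: Ptch1, the Hedgehog receptor and itself a Hedgehog target, with signals of 0.310 to 1625 (median 228) in Hes1-positive cells, against 0.2797 to 356 (median 0.784) in Hes1-negative cells. It was above 50 in 9 of 17 and 2 of 11 cells and differed by 1.52, and the list's median was 0.28. Gli2, a transcription factor of the pathway, differed by 0.48.

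Among 6 measured JAK-STAT genes, 1 was lower, where 4.42% of all genes were: Lifr, a receptor of the LIF family of cytokines, with signals of 0.183 to 141 (median 0.817) in Hes1-positive cells, against 0.446 to 623 (median 150) in Hes1-negative cells. It was above 50 in 3 of 17 and 7 of 11 cells and differed by −1.20. Stat3, its signal transducer, was above 50 in 2 of 17 and 5 of 11 and differed by −0.93. The list's median was −0.12. Among 7 Id and BMP response genes, Bmpr1b, a BMP receptor, was lower by the rule, at −1.12, but at −0.67 within letter X. Id4 was above 50 in every cell and Id3 in none. Of 11 FGF-ERK, 9 Wnt and 7 Hippo genes, none was past the rule.

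Radial glial and structural genes showed few differences, again beside 3.82% higher and 4.42% lower over all measured genes. Of 28 glial-type genes, 1 was higher: Sparc, a secreted matrix protein, above 50 in 12 of 17 Hes1-positive and 5 of 11 Hes1-negative cells, at 1.41, but at −0.75 in the letters other than X. Of 13 junction and polarity genes, 2 were lower: Numb, given above, and Tjp1 (ZO-1), a scaffold of the apical junction. Tjp1 had signals of 2.05 to 1079 (median 206) in Hes1-positive cells, against 49.1 to 1467 (median 668) in Hes1-negative cells, and differed by −1.33. Of 12 measured neuron markers, Stmn3, a microtubule-binding protein, was higher at 1.62 and above 50 in 9 of 17 Hes1-positive and 1 of 11 Hes1-negative cells. Tubb2a, a tubulin, was lower at −1.20 and above 50 in 14 of 17 and 11 of 11. It stood at −1.92 within letter X and −0.58 in the other letters. Dpysl3, an axon guidance mediator, was lower at −1.18 and above 50 in 12 of 17 and 11 of 11, but it stood at −0.76 within letter X and −0.71 in the other letters, both under the rule of size.

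The remaining lists held at most 1 such gene each, against the background of 3.82% higher and 4.42% lower. Of 13 glycolysis genes 1 was lower, the hexokinase Hk2 at −1.50, above 50 in 5 of 17 Hes1-positive and 7 of 11 Hes1-negative cells. Of 10 cortical patterning genes 1 was lower, Lmo3 at −1.09 (−0.84 within letter X), of 5 immediate early genes 1, Jun at −1.07 (−1.74 within letter X, 0.24 in the other letters), and of 4 p53 response genes 1, Mdm2 at −1.04. None of 12 intermediate progenitor, 8 proneural, 13 CDK inhibitor or exit, 10 G1 and 12 housekeeping genes was past the rule over all cells. Within letter X, Neurog2, a member of both the intermediate progenitor and the proneural list, was past it at 1.16, and so was Actb, the cytoplasmic actin on the housekeeping list, at 1.03 (0.83 over all cells). List medians ran from −0.33 for the p53 response genes to 0.28 for the Hedgehog genes, against −0.02 for all measured genes.

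**Figure D4:**
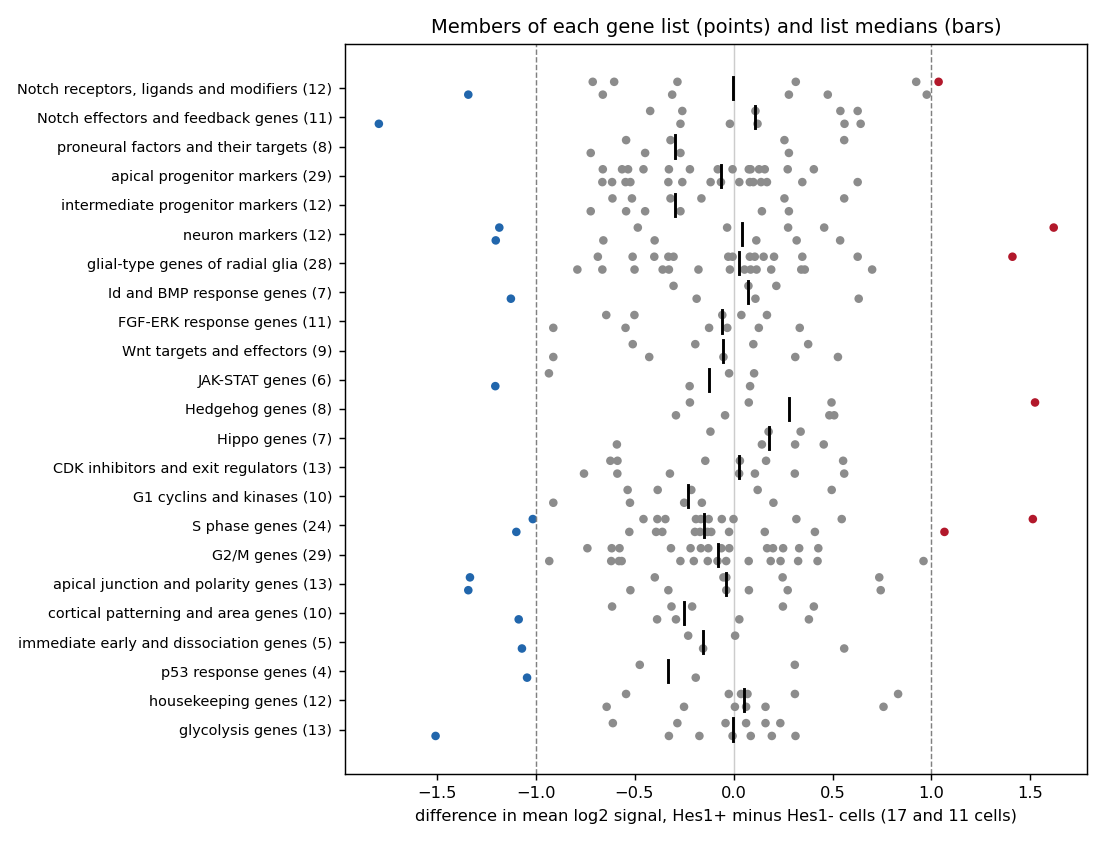
Difference in mean log2 signal, Hes1-positive minus Hes1-negative cells, of each measured member of 23 gene lists (points), with list medians as bars, the number of measured members in brackets and dashed lines at 1 log2 unit either way. Medians lie between −0.33 and 0.28, and no list has more than 2 members past either line.

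The cell cycle was compared on both sides of the Hes1 cut, since S phase and G2/M cells of the ventricular zone lie at different depths. The proliferation genes Mki67 and Top2a were above 50 in all 28 cells. Of 27 S phase genes, 67.5% ± 10.02 were above 50 in Hes1-positive cells and 69.4% ± 13.1 in Hes1-negative cells (SD over cells). Of 29 G2/M genes, 93.5% ± 7.89 were above 50 in Hes1-positive cells and 93.4% ± 15.3 in Hes1-negative cells, with medians of 96.6% and 100%. Without the 1 Hes1-negative cell low in G2/M genes, the mean share differed by −4.42 percentage points, Hes1-positive minus Hes1-negative. A phase rule that calls a cell G2/M when over 50% of the G2/M genes are above 50, tested first, put 17 of 17 Hes1-positive and 10 of 11 Hes1-negative cells in G2/M, so that it hardly divided the cells.

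Mean levels divided them more finely. The mean log2 signal of the S phase genes was 8.39 ± 0.75 in Hes1-positive and 8.48 ± 0.88 in Hes1-negative cells, and that of the G2/M genes 10.26 ± 0.66 and 10.35 ± 1.12. The S phase level minus the G2/M level was −1.87 ± 1.31 and −1.87 ± 1.88, with medians of −2.46 and −2.87. By the median of that value over all 28 cells, 9 Hes1-positive and 5 Hes1-negative cells leaned to S phase, and 8 and 6 to G2/M. Within letter X, 7 Hes1-positive and 5 Hes1-negative cells leaned to S phase, and 3 and 5 to G2/M. The G2/M level ran from 8.45 to 10.94 in Hes1-positive cells and from 7.42 to 11.32 in Hes1-negative cells, and the S phase minus G2/M level from −3.21 to 1.78 and from −3.21 to 2.84. The ranges overlapped, that of the Hes1-negative cells being wider, and at its lower G2/M end by 1 cell. With 28 cells a difference in phase may have gone unseen.

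**Figure D5:**
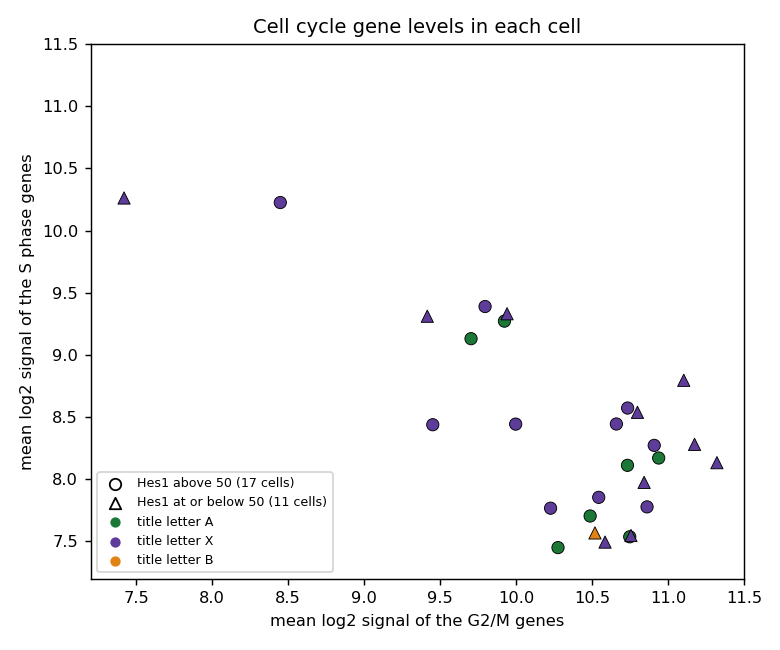
Mean log2 signal of the S phase genes against that of the G2/M genes in each cell, with Hes1-positive cells as circles and Hes1-negative cells as triangles, coloured by title letter. Circles and triangles overlap, with G2/M levels of 8.45 to 10.94 and 7.42 to 11.32, and 1 triangle stands apart at the low end.

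Single cycle genes did differ between the sides past the rule of size, which 3.82% (higher) and 4.42% (lower) of all measured genes also did. Of 24 measured S phase genes, 2 were higher, the replication helicase subunits Mcm4 at 1.51 and Mcm6 at 1.07, and 2 were lower, the helicase component Cdc45 at −1.10 and the ribonucleotide reductase subunit Rrm2 at −1.01. Rrm2 stood at −0.64 within letter X, and 2 further probe sets of it differed by −0.79 and 0.27; Cdc45 stood at −1.35 within letter X. Mcm6 had signals of 0.881 to 4597 (median 1238) in Hes1-positive cells, against 0.261 to 4384 (median 39.6) in Hes1-negative cells, ranges that are almost the same. Among cells leaning to S phase alone it differed by −0.27, and over all cells a second measured probe set of Mcm6 differed by 0.36. Of 29 G2/M genes none was past the rule over all cells, and 1, the mitotic kinase Aurkb, was lower within letter X, at −1.14. Ccnd1, the G1 cyclin D1, was above 50 in 11 of 17 Hes1-positive and 10 of 11 Hes1-negative cells and differed by −0.91.

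The number of genes past the rule was counted again in settings that use the cycle measures. The plain comparison gave 288 higher (3.82%) and 333 lower (4.42%) with Hes1. Averaged within the phase classes, 302 were higher (4.01%) and 353 lower (4.69%). Only the G2/M class held cells of both sides, so this setting left out 1 Hes1-negative cell and did nothing else. With the shares of S phase and G2/M genes above 50 as covariates in a least squares fit, they were 305 (4.05%) and 325 (4.31%). The next settings were chosen after the data were seen. With the mean S phase and G2/M levels as covariates, 345 genes were higher (4.58%) and 292 lower (3.88%). Averaged within the cells leaning to S phase and those leaning to G2/M, 285 were higher (3.78%) and 346 lower (4.59%). Such counts do not show whether the same genes were past the rule, and the part of the cycle was not tested.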

How the data were processed

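The authors' deposited values are linear intensities of 45101 probe sets, and the tool was MAS5, per the submitters' processing notes. Its version and scaling are not given in the sources used here, and detection calls were not used. Values ran from 0.0058 to 11783, and the number of arrays limits the precision. By the platform annotation 34958 probe sets had 1 gene, 932 several and 9211 none. For each of 18194 genes the brightest single-gene probe set was read (by mean log2 over the 69 cells); those with names ending in s_at or x_at, as for Notch3, Irf3, Rad51ap1, AW549877 and Khdrbs1, can also read related transcripts.

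A signal of 50 served as cut and as floor before log2; 18.0% of values and 0 of 207 values of the TrpnX controls, an RNA not listed as added, passed it. The floor makes differences of dim genes smaller than they may be. A gene was measured if above 50 in at least 20% of the 28 cells. Different probe sets were not compared in level except in making this choice and in cell cycle list means.

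Members and gene lists were chosen with earlier results of these data known. There were 31 lists with 458 genes, of which 434 had a probe set and 24 are not analysed here. Genes were named by rule: the 15 highest and 15 lowest differences among genes above 50 in at least 50% of the higher side and of the same sign inside and outside letter X, a fixed set of 40 genes, and up to 4 members per list. Python 3.11.15, numpy 2.4.6, pandas 2.3.3 and scipy 1.17.1 were used, and the difference and count steps were tested on simulated data. No pair of cells had identical values. Alternatives covered the floor, filter, normalization, probe set choice, cuts, letters, cycle, neuron markers, depth and leaving out each cell.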

Additional observations from a re-analysis of the deposited data

Results flagged for a closer look

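Of 27 combinations of a per-cell measure with a group of 7 or 10 cells, 5 held a cell set apart by Dixon's criterion. A chance rate of about 1 in 20 would hold for independent combinations. These were not independent, since the share and the level of the G2/M genes set apart the same cell. The count therefore cannot be read against that rate. In letter X, 1 Hes1-positive cell had 92.6% of the S phase genes above 50, against 59.3% to 74.1% in the other 9. In letter X, 1 Hes1-negative cell had 48.3% of the G2/M genes above 50, against 89.7% to 100% in the others, and its mean log2 signal of these genes was 7.42, against 9.41 to 11.32. In the same group 1 cell had 75.9% of the apical progenitor genes above 50, against 86.2% to 96.6%. In letter A, 1 Hes1-positive cell had 37.9% of the neuron markers above 50, against 24.1% to 27.6%.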

How the results depend on the processing

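The 288 higher and 333 lower genes became 972 and 972 with the floor at the TrpnX 95th percentile, 514 and 591 with it at 25, 101 and 120 with it at 100, and 112 and 122 with all probe sets of a gene averaged. Fewer cells gave more genes: 2175 and 1660 in the letters other than X (7 Hes1-positive cells against 1), 1425 and 1286 in cells with at most 25% of the neuron markers (3 against 4), and, in alternatives chosen after the data were seen, 647 and 752 in cells leaning to G2/M, 825 and 849 in cells leaning to S phase, 465 and 494 in Xist-positive cells, 897 and 886 in Xist-positive cells of letter X, and 628 higher genes with the differences within the 4 shared title numbers averaged. Leaving out each cell in turn gave 272 to 350 higher and 297 to 387 lower genes. In cells with few neuron markers the genes highest in letter X were higher in the other letters in 37% where all cells gave 67%, and leaving out each cell gave 62% to 69%.

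Outside letter X, with 1 Hes1-negative cell, the median of all measured genes was 0.33, and list medians were 0.68 for Notch effectors, 0.62 for S phase genes, 0.61 for Notch receptors, ligands and modifiers, 0.63 for proneural and 0.63 for intermediate progenitor genes, 0.35 for apical progenitor genes, 0.66 for neuron markers, −1.79 for JAK-STAT, 0.75 for CDK inhibitors, 0.22 for patterning, 0.72 for p53 response and −1.08 for glycolysis genes. The JAK-STAT median was −0.64 with the Hes1 cut at 100, −0.66 within title numbers and −0.66 in Xist-positive cells. In the Xist-positive cells of letter X it was −0.59, and the proneural median there was 0.51. With few neuron markers the Hippo, patterning and glycolysis medians were −0.46, 0.32 and 0.85.

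Some single genes turned. Outside letter X the differences were 0.25 for Numb, 0.37 for Tle3, −0.75 for Sparc and 0.24 for Jun. With few neuron markers they were −1.07 for Akt1s1, 0.10 for Rad51ap1 and 0.79 for Bmpr1b. Mcm6 was at −0.27 in cells leaning to S phase. Xist was at 0.67 with the Hes1 cut at 100, at 0.26 within title numbers, and at 0.32 and 0.13 in the 2 sets of cells chosen for Xist. The causes were not tested. Of the 30 genes named for their difference in these same cells, 30 kept their sign under every alternative but the one with few neuron markers, where 28 did, and 15 of 30 stayed past 1 log2 unit with all probe sets averaged. Cells were matched across the sides only by title number, in the averaged differences given above. The labels do not say what these numbers mean, and no test was run.

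The labels give no embryo, so the sides are 1 sample each. Only letter X, with 20 cells, had the same letter on both sides. Sex-linked transcripts were uneven there too, with Xist above 50 in 4 of 10 Hes1-positive and 8 of 10 Hes1-negative cells. Signals at or below 50 were not ordered, and a transcript lost in amplification cannot be told apart from one that was absent.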
